A study of Mus musculus with 6 samples.

Results

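The complement genes C4b, C1qa, C1qb, C1qc, C2, C3, Serping1, Cd55 and Cd59a, 9 in all, were described in the arcuate nucleus (ARC) of mice on 2 diets. They were picked by symbol from 22322 genes measured, and all 9 had counts in all 6 samples and passed the filter on low counts, which kept 14188 genes. C4b was picked because its difference between the diets in these same samples was already known. The changes of the 9 genes are therefore given as a description, without printed p-values. Where the text says how many of the 9 passed a threshold, nothing is read from that.

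The mice were male wild types of the C57BL/6J strain. A normal-chow diet (NCD) held 16.5% fat and the high-fat diet (HFD) held 60%. Feeding began at 4 weeks of age and lasted 16 weeks. The ARC, a nucleus at the base of the hypothalamus that senses nutrients and hormones, was cut from frozen brain sections by laser capture microdissection and its polyadenylated RNA was sequenced. Each diet had 3 samples, called NCD1 to NCD3 and HFD1 to HFD3 here. The labels do not say whether a sample was 1 mouse or a pool of mice, so the spread between samples may be partly technical. No genotype or drug differed between the diets. Total counts ran from 5171381 in HFD3 to 15925648 in NCD1, so 3 counts correspond to between 0.188 CPM (counts scaled to a common library size) in NCD1 and 0.58 CPM in HFD3. Genes that mark ARC neurons were present, led by Cartpt with a mean of 749 FPKM (fragments per kilobase of transcript, scaled to library depth). Kiss1, which marks the neurons that the dissection was aimed at, had no count in NCD1 and HFD1 and between 21 and 42 counts in each of the other 4 samples.

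The complement system is a cascade of plasma and tissue proteins that tags surfaces and recruits phagocytes. In the classical pathway C1q, built from chains encoded by C1qa, C1qb and C1qc, binds a surface, and its associated proteases then cleave C4 and C2 to form the enzyme that splits C3. Serping1 encodes the C1 inhibitor, Cd55 speeds the decay of C3-splitting enzymes, and Cd59a blocks the final membrane pore. In the brain C1q is made mainly by microglia, while C4b is known as a gene that glia such as astrocytes and oligodendrocytes raise with age and injury. C1q and C3 tag synapses for removal by microglia.

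All 9 genes were placed on GRCm38 with the GENCODE M21 annotation. C4b lies on the minus strand of chr17:34728380-34743882, and C2 lies in the same region at chr17:34862604-34898265, while C3 lies apart from them at chr17:57203970-57228136. C1qb, C1qc and C1qa stand side by side within 18675 bp of chromosome 4, from 136880129 to 136898803, all on the minus strand. Serping1 is at chr2:84765387-84775444, Cd59a at chr2:104095801-104115354 and Cd55 at chr1:130439027-130462744.

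C4b has a near copy, C4a, at chr17:34809092-34823464, which GENCODE M21 lists as a processed transcript. C4a was not among the genes measured, so no C4a counts were at hand. The transcripts of the 2 genes were 96.1% identical over 5367 aligned bases. The 60-base stretch of C4b coding sequence that differs most from C4a, bases 2761 to 2820 of its transcript and bases 2755 to 2814 of the C4a transcript, is shown because it is where reads of the copies are easiest to tell apart. Capitals mark the 13 bases that differ.
C4b: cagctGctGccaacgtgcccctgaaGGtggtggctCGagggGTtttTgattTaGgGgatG
C4a: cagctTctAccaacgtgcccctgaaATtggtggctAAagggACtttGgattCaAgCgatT
Elsewhere the copies share runs of up to 433 bases, and 35.2% of all 50-base stretches and 8.26% of all 150-base stretches of the C4b transcript also occur in C4a. Neither the read length nor the treatment of reads that fit both copies is given in the sources used here, so C4b counts may include reads from C4a.

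C1qb and C1qc were both higher on HFD without overlap between the diets, and their upstream sequence is shown for that reason. The capitals mark the core of the binding motif of PU.1, a transcription factor of microglia and macrophages, searched as GAGGAA on both strands. Both windows are read on the minus strand of GRCm38.p6 from RefSeq promoters and lie upstream of the annotated gene starts.
C1qb, chr4:136886201-136886260: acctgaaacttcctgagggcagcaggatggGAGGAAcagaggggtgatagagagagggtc
C1qc, chr4:136893075-136893134: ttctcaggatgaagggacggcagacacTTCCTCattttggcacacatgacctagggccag
Promoters of 5 of the 9 genes were at hand (C1qb, C1qc, C3, Cd55 and Cd59a). In the 250 bases before the RefSeq start, GAGGAA was found in 3 of them (C1qb, C1qc and Cd59a) and in 23.3% of all 32851 promoters. An NF-kB motif was found in C1qc alone and in 7.25% of all promoters. The motif bound by STAT factors, TTCNNNGAA, was found in none of the 5 and in 7.02% of all promoters. A match is only a run of letters and says nothing on whether a factor binds there.

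The levels of the 9 genes spanned a wide range. By mean FPKM over all 6 samples the order was C1qb (73.2 ± 12.9, SD), C1qc (54.4 ± 10.2), C1qa (45.8 ± 11.3), Cd59a (14.6 ± 3.997), C4b (8.61 ± 4.52), Serping1 (6.69 ± 2.51), Cd55 (3.68 ± 0.599), C2 (3.26 ± 0.665) and C3 (1.55 ± 0.296). The gaps between C1qa and Cd59a and between C2 and C3 were larger than the spread, since no sample ranges overlapped there. All other neighbours in the order overlapped in range. Within each of the 6 samples the C1q chains still ranked C1qb, C1qc, C1qa. C4b changed its place between samples: it held place 7 in NCD3, place 6 in NCD1, place 5 in NCD2, HFD2 and HFD3, and place 4 in HFD1.

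**Figure D1:**
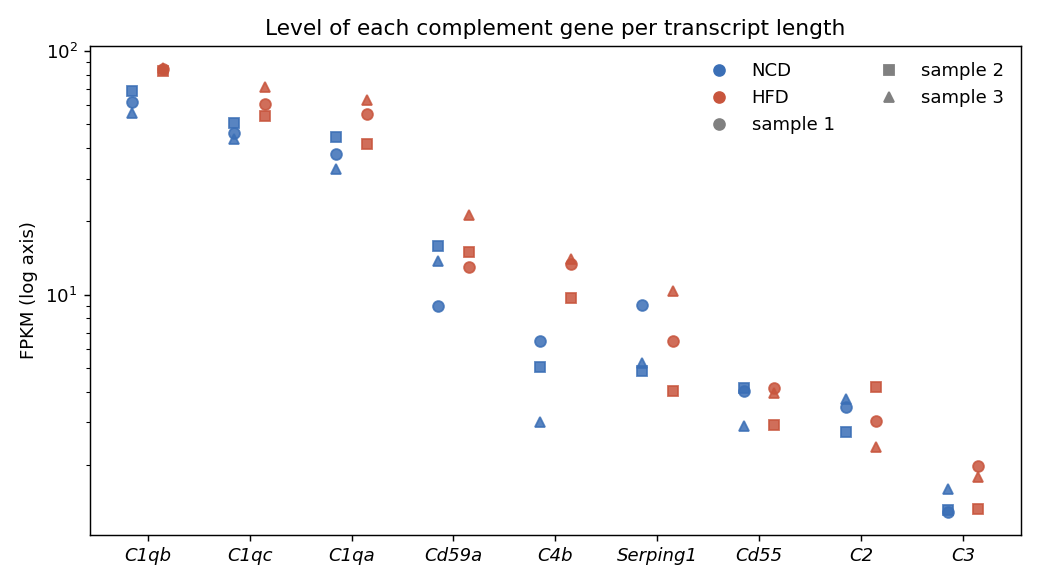
FPKM (log axis) of the 9 complement genes in each sample, ordered by mean level, with NCD samples in blue and HFD samples in red. The C1q chains lie highest, from 32.7 FPKM upwards, C3 lies lowest, and C4b is the gene whose diets stand farthest apart.

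Between the diets, 7 of the 9 genes were higher on HFD and 2 were lower, with a median log2 fold change of 0.33, beside a median of 0.00317 over all genes tested, of which 50.5% were higher on HFD. The HFD and NCD samples did not overlap for 3 of the 9 genes (C4b, C1qb and C1qc), all higher on HFD. Over all genes tested, 6.47% had groups that did not overlap, 3.24% in the direction of higher on HFD. In edgeR's quasi-likelihood test 0 of the 9 genes passed an adjusted p of 0.05, and 3 of the 9 passed an unadjusted p of 0.05, all 3 higher on HFD. These were C4b, C1qb and C1qa, so they are not the same 3 as the genes without overlap. The shares over all genes tested were 0.0564% (8 genes) at an adjusted p of 0.05 and 2.3% (326 genes) at an unadjusted p of 0.05, or 1.21% counting only genes higher on HFD. The study's threshold, an unadjusted p of 0.05 with a change above 1.5-fold, was passed by 1 of the 9 genes, C4b, and by 1.9% of all genes tested. The count at an unadjusted p of 0.05 was 1 of the 9 without NCD1, NCD3 or HFD1, 2 without HFD2 or HFD3, 3 without NCD2, and 2 in DESeq2 and limma. DESeq2 called 1 of the 9 genes, C4b, at an adjusted p of 0.05 and limma on log2 FPKM called 0. Since C4b was picked for its difference, nothing is read from these counts against the background.

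**Figure D2:**
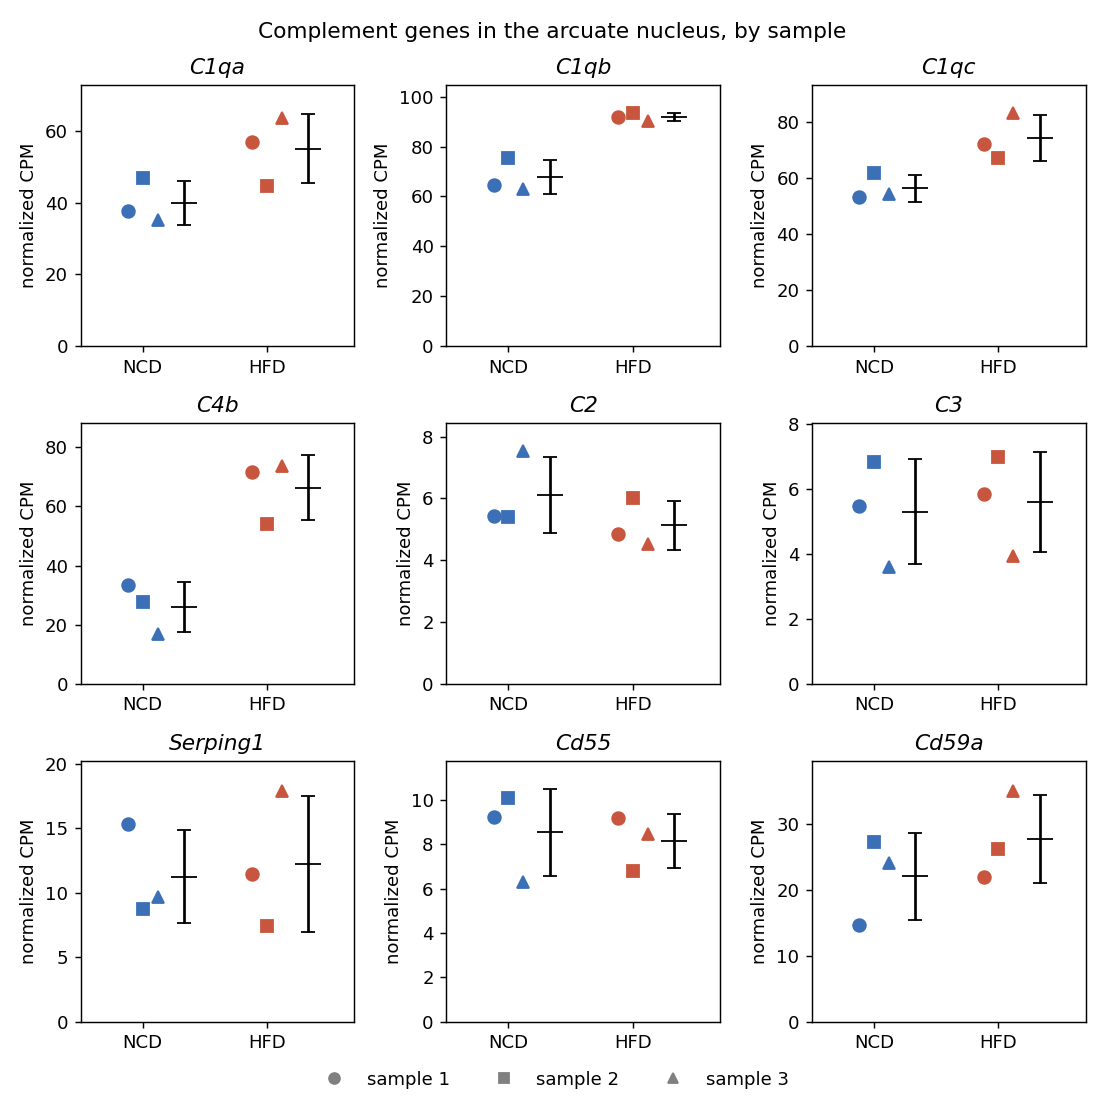
Normalized CPM of each of the 9 genes in the 3 NCD and the 3 HFD samples (points), with the group mean and SD (bars). Sample numbers name samples and were not used as pairs. The diets stand apart for C4b, C1qb and C1qc and overlap for the other genes.

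C4b, the form of the fourth component that the classical pathway cleaves, had the largest difference of the 9 genes. Its counts were 555 in NCD1, 271 in NCD2 and 111 in NCD3, against 576 in HFD1, 547 in HFD2 and 392 in HFD3. Scaled for depth these were 33.4, 27.6 and 16.7 CPM on NCD and 71.6, 53.9 and 73.8 CPM on HFD. All HFD samples lay above all NCD samples, and the lowest NCD value came from NCD3. The highest value was that of HFD3, which also held the most fibroblast and meningeal markers. Those markers summed to 205 CPM in HFD3, 79.8 CPM in HFD1 and 59.9 CPM in HFD2, and to between 96.7 and 105 CPM in the NCD samples. The part of such cells in the C4b level was not tested. The group means were 25.9 ± 8.48 CPM (SD, n = 3) on NCD and 66.4 ± 10.9 CPM (SD, n = 3) on HFD, a 2.54-fold difference with a log2 fold change of 1.35 (SE 0.26). Without NCD3 the log2 fold change of C4b was 1.12, and over 15 alternative settings, left-out samples included, it ranged from 1.12 to 1.56.

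The C1q chains form the recognition molecule of the classical pathway. C1qb measured 64.6, 75.4 and 62.9 CPM in the NCD samples and 91.97, 93.6 and 90.1 CPM in the HFD samples. The HFD values lay close together and above every NCD value, with a log2 fold change of 0.44 (SE 0.18). C1qc measured 53.2, 62.0 and 54.3 CPM on NCD and 72.5, 67.4 and 83.4 CPM on HFD, again without overlap, with a log2 fold change of 0.40 (SE 0.19). C1qa measured 37.6, 46.9 and 35.2 CPM on NCD and 57.0, 44.9 and 63.8 CPM on HFD. Here HFD2 lay below NCD2, so the groups overlapped, although the log2 fold change of 0.46 (SE 0.21) was as large as those of the other chains. C1qc and C1qa were both highest in HFD3, the sample with the most fibroblast and meningeal markers. The share of each chain in the summed FPKM of the C1q genes overlapped between the diets: C1qb made up 42.2% ± 0.367 on NCD and 42.5% ± 3.82 on HFD (SD, n = 3).

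C2, the protease subunit that joins C4 in the C3-splitting enzyme, was low, with 24 to 90 counts per sample. It measured 5.42, 5.39 and 7.52 CPM on NCD and 4.85, 6.01 and 4.52 CPM on HFD, with groups that overlapped and a log2 fold change of -0.23 (SE 0.33), which ranged from -0.372 without HFD2 to -0.065 without NCD3. Gm20547, a gene annotated over C2 on the same strand and named after its values were seen, had 10 counts in all 6 samples together. C3, the component on which all pathways of the cascade converge, had 21 to 91 counts per sample. It measured 5.48, 6.82 and 3.61 CPM on NCD and 5.84, 6.999 and 3.95 CPM on HFD, and its log2 fold change was 0.08 (SE 0.37), which ranged from -0.115 without HFD2 to 0.293 without NCD2. The lowest C3 value of each diet came from its least deeply sequenced sample. For both genes the difference was smaller than its standard error, so none was detected.

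Among the regulators, the groups of all 3 genes overlapped. Serping1 measured 15.4, 8.75 and 9.63 CPM on NCD and 11.4, 7.39 and 17.9 CPM on HFD, with a log2 fold change of 0.09 (SE 0.35) that ranged from -0.27 without HFD3 to 0.38 without NCD1. HFD3 held the highest Serping1 value, and it also held the highest summed level of fibroblast and meningeal markers, 205 CPM against 59.9 to 105 CPM in the other samples. The part of such cells in the Serping1 level was not tested. Cd55 measured 9.21, 10.1 and 6.32 CPM on NCD and 9.20, 6.80 and 8.47 CPM on HFD (log2 fold change -0.08, SE 0.30), and its log2 fold change ranged from -0.241 without NCD3 to 0.052 without NCD2. Cd59a measured 14.7, 27.3 and 24.1 CPM on NCD and 22.0, 26.1 and 34.996 CPM on HFD (0.33, SE 0.27), with NCD1 the lowest and HFD3 the highest. Without NCD1 its log2 fold change was 0.088, without HFD3 0.134 and without NCD2 0.522, and with the total count as a covariate it was 0.101. Cd59a and Cd55 have near copies too: the transcript of Cd59b was 87.0% identical to Cd59a over 763 aligned bases and that of Cd55b 89.9% identical to Cd55 over 1325 aligned bases. Cd55b had 1 count in all samples together. Cd59b measured 4.57 ± 2.06 CPM on NCD and 6.89 ± 1.53 CPM on HFD (SD, n = 3), which overlapped.

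The 9 genes were set beside the rest of the complement system, a list of 47 further symbols of which 46 were in the table and 21 passed the filter on low counts. Of these 21 genes, 10 were higher and 11 lower on HFD, with a median log2 fold change of -0.00386. None passed an adjusted p of 0.05 in edgeR's quasi-likelihood test (0 of 21), as in DESeq2 and in limma on log2 FPKM. At an unadjusted p of 0.05 there was 1 of the 21 genes (4.76%), beside 2.3% of all genes tested. That gene was Csmd2, a membrane protein with complement control domains that is expressed in neurons. It measured 17.8, 21.8 and 21.7 CPM on NCD and 25.2, 23.0 and 49.3 CPM on HFD, without overlap, and its log2 fold change was 0.66 (SE 0.29, edgeR adjusted p = 0.999). Its highest value was that of HFD3. The count of 1 fell to 0 without NCD1, without NCD2 or without HFD3, and was 3 without NCD3 or without HFD1, in fits that tested 22 to 24 genes of the list.

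Most other components of the cascade were low. C1s1, the protease of the C1 complex, was the 1 further classical gene that passed the filter, at 0.778 FPKM, and is named after its values were seen. Masp1 of the lectin pathway stood at 1.61 FPKM. Properdin (Cfp), which stabilizes the alternative pathway enzyme, stood at 3.23 FPKM, with a log2 fold change of 0.67 (SE 0.49, edgeR adjusted p = 0.999). Of the terminal components C8g (1.69 FPKM) and Hc (the mouse C5 gene) passed the filter. The genes C1s2, Mbl1, Fcnb, Cfd, C9, Vsig4, C4bp and Cpn2 had no count in any sample, which allows levels of up to 0.188 CPM in NCD1 and 0.58 CPM in HFD3. These limits cover counting error only. Among receptors Itgam, a chain of complement receptor 3, was the most abundant (1.74 FPKM), and its log2 fold change was 0.05 (SE 0.33). The regulator list held the most abundant gene of the cascade. Clu (clusterin) reached 463 FPKM, Susd4 51.8 FPKM and Vtn (vitronectin) 39.6 FPKM, and their log2 fold changes were 0.12 (SE 0.24), -0.07 (SE 0.22) and -0.07 (SE 0.22).

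**Figure D3:**
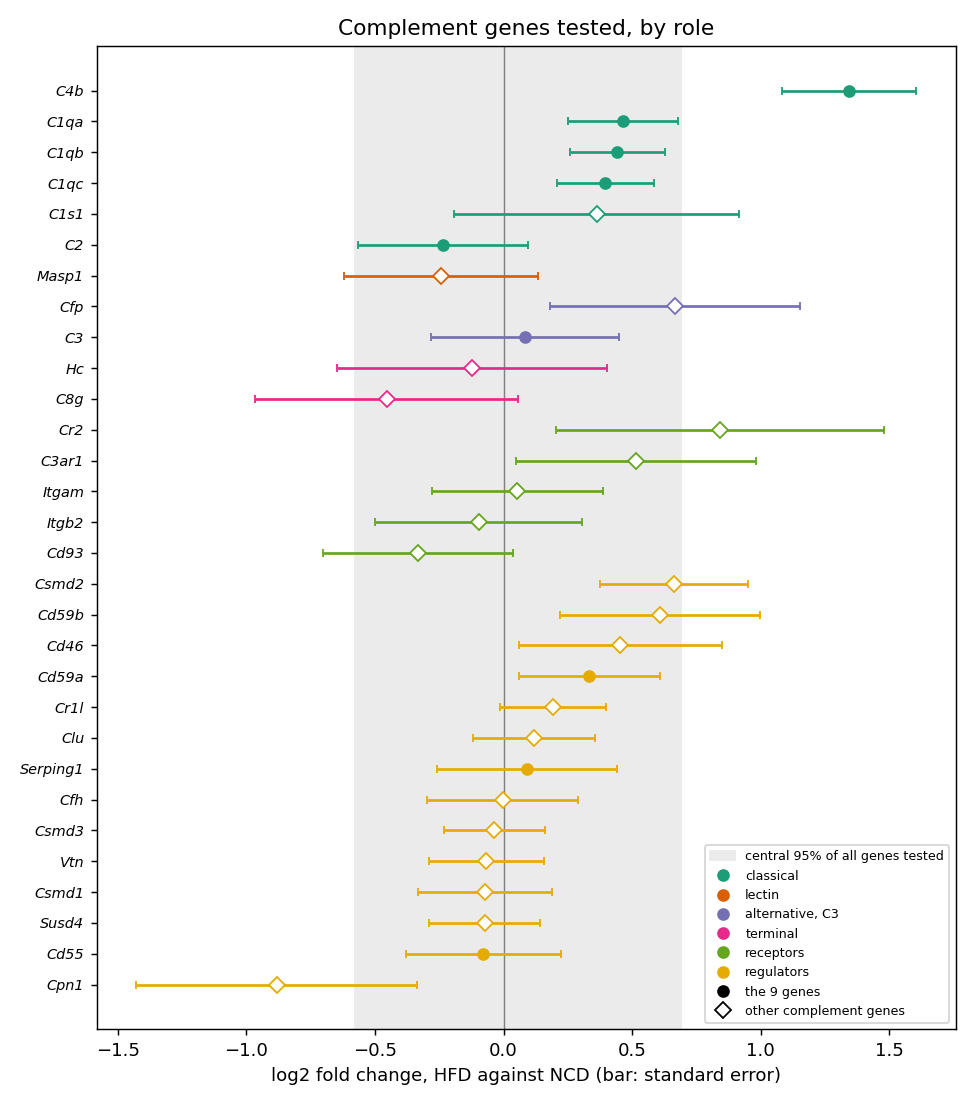
Log2 fold change (HFD against NCD) with its standard error for the 30 complement genes tested, coloured by role, with filled circles for the 9 genes and open diamonds for the others. The grey band runs from the 2.5 to the 97.5 percentile of all genes tested, -0.577 to 0.692; C4b (1.35) and Cr2 (0.84, SE 0.64) lie to its right, Cpn1 (-0.88, SE 0.55) lies to its left, and the C1q chains lie inside it.

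These are bulk samples, so more cells of a type and more RNA per cell cannot be told apart. The 14 microglial markers all passed the filter; 9 were higher and 5 lower on HFD, with a median log2 fold change of 0.18 (0.098 without NCD1), and none had an adjusted p under 0.05. At an unadjusted p of 0.05 there was 1 of the 14 genes (7.14%), beside 2.3% of all genes tested. That gene was the most abundant marker, Ctss (cathepsin S). It measured 112, 135 and 118 CPM on NCD and 177, 153 and 184 CPM on HFD (log2 fold change 0.50, SE 0.20, edgeR adjusted p = 0.999). The call of Ctss was lost without NCD1, without HFD1 or without HFD3, where 0 of the 14 had an unadjusted p under 0.05. Groups did not overlap for 2 of the 14 genes (14.3%, beside 6.47% of all genes tested), Ctss and the Fc receptor-like gene Fcrls, both higher on HFD. Fcrls, named after its values were seen, had a log2 fold change of 0.43 (SE 0.25). None of the 14 was at 0.

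The summed level of the 14 markers was 479, 509 and 435 CPM on NCD and 541, 549 and 540 CPM on HFD. It was higher in all HFD samples than in any NCD sample, but not once Ctss was left out, a step chosen after seeing the data. The other 13 markers summed to 366, 374 and 317 CPM on NCD and 364, 396 and 356 CPM on HFD, which overlapped. C1q counts per 100 microglial marker counts were 32.5, 36.2 and 35.1 on NCD and 40.9, 37.5 and 43.9 on HFD, and these groups did not overlap either. The means were 34.6 ± 1.92 and 40.8 ± 3.22 (SD, n = 3). With Ctss left out of the markers the same ratio was 46.6 ± 3.67 and 59.8 ± 7.38, still without overlap. The C1q genes were chosen with the contrast known, so the ratios are a description, without a test. The 5 markers of perivascular macrophages, which also make C1q, all failed the filter on low counts. Pf4 was the most abundant of them, at 2.35 FPKM, and their summed level was 2.47, 4.89 and 3.01 CPM on NCD and 3.73, 2.86 and 8.47 CPM on HFD.

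**Figure D4:**
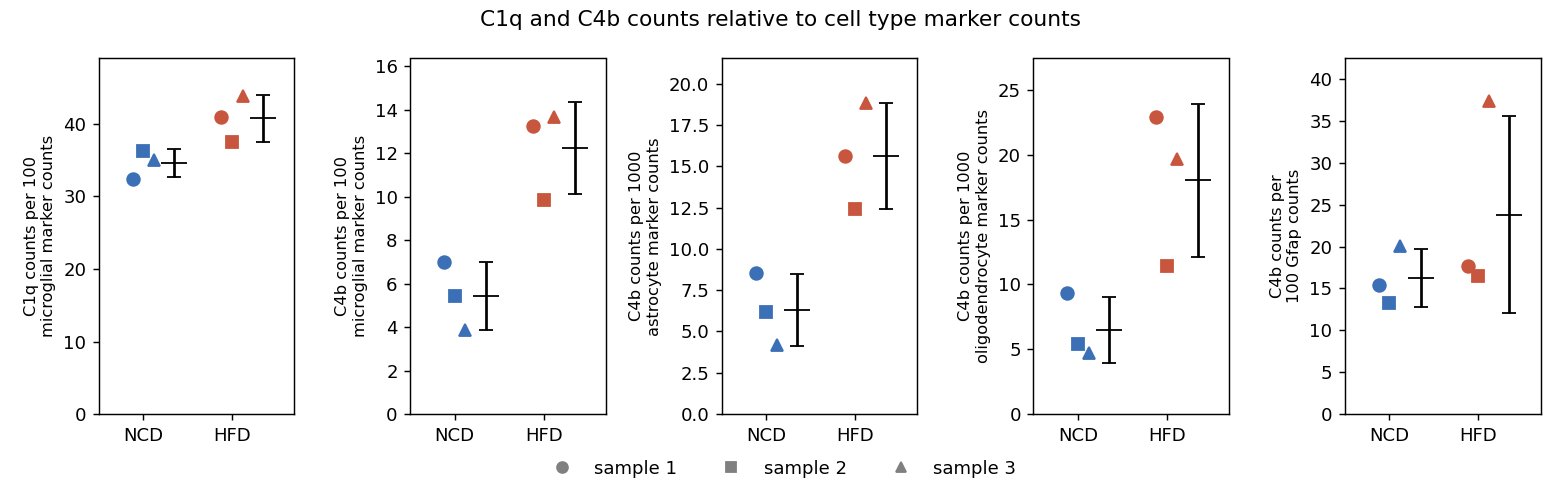
C1q counts per 100 microglial marker counts (left) and C4b counts per 100 microglial, 1000 astrocyte (without Gfap) or 1000 oligodendrocyte marker counts or per 100 Gfap counts, by sample (points), with mean and SD (bars). The diets do not overlap in the first 4 panels and do overlap relative to Gfap.

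C4b was set beside markers of the glia that are known to express it. All 10 astrocyte markers passed the filter, 6 higher and 4 lower on HFD, with a median log2 fold change of 0.04 that ranged from -0.034 without NCD1 to 0.13 without NCD2. Their most abundant gene, Aldoc (aldolase C), reached 728 FPKM with a log2 fold change of 0.05 (SE 0.26), and none was at 0. Their summed level was 4127, 4688 and 4070 CPM on NCD and 4989, 4676 and 4112 CPM on HFD, which overlapped. Gfap, the intermediate filament protein of astrocytes, was the 1 of the 10 with an unadjusted p under 0.05 (10%, beside 2.3% of all genes tested). It measured 217, 207 and 83.1 CPM on NCD and 406, 328 and 198 CPM on HFD (log2 fold change 0.88, SE 0.35, edgeR adjusted p = 0.999), and is named after its values were seen. Without HFD1 or without HFD2 none of the 10 had an unadjusted p under 0.05, and without NCD3 there were 2. Its groups overlapped, and its lowest value in each diet came from sample 3. C4b was also lowest on NCD in NCD3, but on HFD it was highest in HFD3.

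The 9 oligodendrocyte markers, led by Mbp (myelin basic protein, 887 FPKM), had a median log2 fold change of -0.10, with 2 higher and 7 lower and none at 0. That median was 0.063 without NCD2 and -0.314 without HFD2. Their summed level was 3568, 5111 and 3567 CPM on NCD and 3120, 4709 and 3756 CPM on HFD, with overlap. C4b counts per 1000 astrocyte marker counts, with Gfap left out, were 6.30 ± 2.18 on NCD and 15.6 ± 3.22 on HFD (SD, n = 3), without overlap. Per 1000 oligodendrocyte marker counts they were 6.48 ± 2.52 and 18.0 ± 5.92, and per 100 C1q counts 15.8 ± 5.32 and 29.9 ± 3.24, again without overlap. Per 100 Gfap counts the diets overlapped, at 15.4, 13.3 and 20.1 on NCD and 17.6, 16.4 and 37.3 on HFD. The value of HFD3 stood far above the other 5.

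Genes that reactive glia raise were compared in the same fit. Of 12 such genes 10 were tested, 9 higher and 1 lower on HFD, with a median log2 fold change of 0.50 (0.316 without HFD1 and 0.728 without HFD2). None of the 10 passed an adjusted p of 0.05 by edgeR, and 2 (20.0%) had an unadjusted p under 0.05, beside 2.3% of all genes tested. Their number was 1 without HFD3 and 3 without any of the other 5 samples. Serpina3n, a secreted protease inhibitor of reactive astrocytes, measured 84.3, 77.2 and 61.5 CPM on NCD and 139, 83.6 and 184 CPM on HFD (log2 fold change 0.86, SE 0.27, edgeR adjusted p = 0.999). HFD2 lay just below NCD1. Socs3, a feedback inhibitor of cytokine and leptin signalling, measured 3.91, 5.60 and 3.31 CPM on NCD and 9.07, 6.01 and 12.4 CPM on HFD, without overlap (1.08, SE 0.37, edgeR adjusted p = 0.999). Like C4b, both genes had their lowest HFD value in HFD2.

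Interferon and MHC class I genes formed the other response list. All 14 were tested, 12 were higher and 2 lower on HFD, and the median log2 fold change was 0.46. None of the 14 passed an adjusted p of 0.05 by edgeR, while 3 (21.4%) had an unadjusted p under 0.05 and 5 (35.7%) had groups that did not overlap, beside 2.3% and 6.47% of all genes tested. H2-K1, a class I heavy chain, measured 40.1, 36.2 and 32.2 CPM on NCD and 60.7, 46.3 and 75.4 CPM on HFD (log2 fold change 0.74, SE 0.22, edgeR adjusted p = 0.999). B2m, the light chain, had a log2 fold change of 0.46 (SE 0.20) and Psmb8, an immunoproteasome subunit, one of 0.67 (SE 0.29), each with an edgeR adjusted p of 0.999. These 3 genes are those with an unadjusted p under 0.05. Their number was 8 without NCD1, 4 without HFD2 and 1 without any of the other samples. H2-D1, Irf1 and Isg15 did not overlap between the diets but had p-values over 0.05. The summed level of the 14 genes was 578, 485 and 440 CPM on NCD and 668, 611 and 789 CPM on HFD, without overlap. With the most abundant gene, B2m, left out, a step chosen after seeing the data, it was 363, 247 and 211 CPM on NCD and 377, 324 and 427 CPM on HFD, which overlapped. Both sums were highest in HFD3, as were B2m, H2-K1, Psmb8, Serpina3n and Socs3, and HFD3 was also the sample with the most fibroblast and meningeal markers (205 CPM, against 59.9 to 105 CPM in the others). The part of such cells in these levels was not tested.

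**Figure D5:**
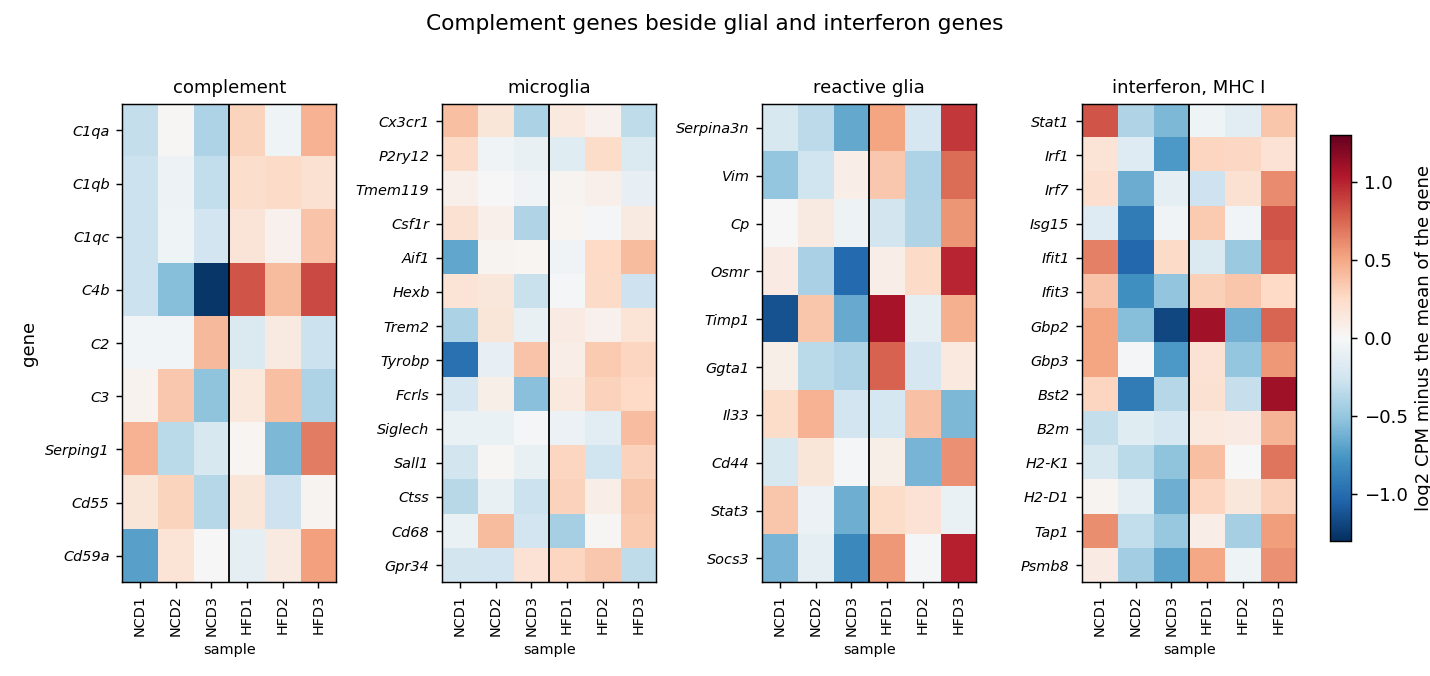
Log2 CPM of each gene minus its mean over the 6 samples, for the 9 complement genes and for the tested genes of the microglial, reactive glia and interferon and MHC class I lists; red is above and blue below the mean of the gene. C4b is lowest in NCD3 and high in HFD1 and HFD3, and several reactive glia and interferon genes are also highest in HFD3.

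The genes whose pattern over the 6 samples was closest to that of C4b were ranked by the root mean square difference of log2 CPM, each gene centred on its own mean. The closest 5 of all genes tested were Dnase1l1 (0.227), Zbtb16 (0.258), Best3 (0.258), Slc43a3 (0.273) and Dazl (0.291). Zbtb16, a zinc finger transcription factor, had a mean of 92.7 counts per sample, and the other 4 had means between 9.5 and 42.5 counts, at which the pattern of a gene is poorly measured. With at least 50 counts per gene the closest 5 were Zbtb16, Tekt4, Hk2, Slc15a2 and Socs3, and on the log2(FPKM + 1) scale they were Pycard, Gm8108, Osgin1, Zbtb16 and Gchfr. Zbtb16 alone was shared with the first ranking in each case. Among the listed genes the ranks were 19 for Socs3, 24 for Osmr, 28 for Psmb8, 32 for Serpina3n and 45 for H2-K1. Gfap ranked 100 and C1qa, the closest of the other complement genes, 216.

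The genes around C4b were described in the same fit. Within 250 kb on either side 54 genes were annotated and 23 tested, of which 13 were higher and 10 lower on HFD. Their median log2 fold change was 0.06 and their range -0.54 to 0.70. That of C4b was 1.35, but C4b was picked for its difference, so nothing is read from this contrast. Groups did not overlap for 1 of the 23 (4.35%, beside 6.47% of all genes tested), Stk19, which lies next to C4a and was named after its values were seen (log2 fold change 0.27, SE 0.20).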

How the data were processed

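Polyadenylated RNA from microdissected ARC tissue of 6 samples, 3 per diet, was sequenced on a NovaSeq6000. According to the study's methods the authors cleaned the reads, compared them with ribosomal sequences by bowtie2, aligned them with HISAT2 and derived values per gene with StringTie and RSEM. The build named in the submitters' processing notes is mm10. Tool versions, annotation release, strand and read length are not given in the sources used here. The deposited count columns hold whole-number reads per gene, not normalized. The deposited FPKM columns are counts that the authors scaled to transcript length and mapped reads. The table's 3 columns of the authors' own comparison (fold change, p-value and FDR) and their group means were not used. Sample titles give a letter and a number, and the letters were read as the diets from the design text and the names of the group means.

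Identifiers were matched to GENCODE M21 on GRCm38 (22267 of 22322 had a symbol), and promoters to RefSeq on GRCm38.p6. Genes were filtered with filterByExpr (14188 kept; 4145 had no count), normalized by TMM (factors 0.967 to 1.04) and tested with edgeR 4.0.16 glmQLFit and glmQLFTest in R 4.3.3, with diet as the only term and Benjamini-Hochberg adjustment. The common biological coefficient of variation was 0.244. Standard errors are the absolute log2 fold change divided by the root of the F statistic. CPM values use TMM library sizes, except raw totals for single genes under the filter and for limits of detection. Summed levels use TMM library sizes for all genes of a list. Centred log2 CPM used a prior count of 2. The replicate numbers were not used as pairs. In data simulated for this comparison, on 14188 genes, the test recovered 23 of 50 genes changed by 1 on the log2 scale. It recovered 40 of 50 at 1.5, 48 of 50 at 2 and 49 of 50 at 3, with 0 in the wrong direction and 8 false calls. Every simulated gene was given the common coefficient of variation. The simulation therefore does not cover differences in variation between real genes.

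The 9 genes and all lists were chosen with earlier results of these data known. Text names the 9 genes, complement genes with p under 0.05, without overlap or among the 3 most abundant of their list, the 5 genes closest to C4b, the most abundant marker of each list and markers at 0, and up to 6 reactive, interferon or C1q-domain genes with p under 0.05 or no overlap. Alternatives were DESeq2 1.42.0 and its size factors, library totals, other filters, limma 3.58.1 on log2(FPKM + 1) and log2(FPKM + 0.1) where mean FPKM reached 0.5, the log2 total count as a covariate, a replicate block and leaving out each sample. Sequence work and figures used Python 3.11.15, Biopython 1.88 and matplotlib 3.10.9.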

Additional observations from a re-analysis of the deposited data

How the results depend on the processing

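The log2 fold changes of C4b, C1qa, C1qb, C1qc and Cd59a were above 0 and that of C2 below 0 in all 15 alternatives, and none of the 9 genes moved by more than 1 SD between samples. C3 was above 0 in 13 of them, Serping1 in 12 and Cd55 in 2. The number of genes with an adjusted p under 0.05 was 8, and it became 15 among genes with at least 1 count and when log2 total count was a covariate, 19 in DESeq2 and 5 in limma with either pseudocount. Leaving out each sample gave 1 (without NCD2, HFD1 or HFD2) to 16 (without NCD3). Genes with p under 0.05 and a change above 1.5-fold numbered 270, which became 427 among genes with at least 1 count, 179 with a mean of at least 50 counts, and 195 to 982 when samples were left out (982 without NCD3, 606 without HFD2). Of the 9 genes 0 had an adjusted p under 0.05, against 1, C4b, with at least 1 count, with the total count covariate and in DESeq2. Gfap also passed with that covariate. Other complement genes with p under 0.05 went from 1 to 0 with the covariate and in limma, and to 0 to 3 with samples left out. Their median of -0.00386 became 0.149 with at least 1 count, as more genes were tested, and -0.023 to 0.188 with samples left out. The median of plasma and liver genes turned from 0.58 to -0.264 with a mean of at least 50 counts, where fewer genes were tested. With samples left out, medians ranged from -0.089 to 0.171 for endothelial, from -0.348 to -0.152 for pericyte and smooth muscle, and from -0.809 (without HFD3) to 0.277 for fibroblast and meningeal markers. The HFD samples exceeded the NCD samples by 69.4 CPM in summed microglial markers and by 19.6 CPM with Ctss left out, a choice made after seeing the data. C4b held place 5 by FPKM over all samples and place 6 in NCD1, 7 in NCD3 and 4 in HFD1 alone. The genes closest to C4b shared 1 of 5 with the ranking on FPKM and 1 of 5 with that at 50 counts. Where no construction is named, the cause was not tested. The sum of C4b and C4a counts was not run, since C4a was not among the genes measured.

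Whether the replicate numbers pair samples is not given by the labels. Deviations from the group means correlated at -0.0116 between the samples numbered 1, 0.113 between those numbered 2 and 0.369 between those numbered 3. These values do not settle whether samples of the same number share a batch or a pairing. With the number as a replicate block 17 genes had an adjusted p under 0.05, and 1 of the 9 complement genes, C4b, was among them. C2, C3, Cd55 and Serping1 had the fewest counts, 21 to 255 per sample. The C1q differences were smaller than the smallest change simulated, 1 on the log2 scale.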

Other observations

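RNA was also measured for genes whose proteins share a C1q-like domain with the C1q chains but act at synapses. Of the 8 genes (C1ql1 to C1ql4 and Cbln1 to Cbln4) 6 passed the filter on low counts, with 4 higher and 2 lower on HFD and a median log2 fold change of 0.09. By edgeR none passed an adjusted p of 0.05, nor an unadjusted one, except 2 at an unadjusted p of 0.05 without NCD3. The most abundant was Cbln4, a cerebellin released at synapses, at 21.9 FPKM. It measured 68.9, 72.6 and 59.7 CPM on NCD and 58.7, 78.3 and 44.8 CPM on HFD, with overlap. The summed level of the 8 genes was 212 ± 20.0 CPM on NCD and 210 ± 39.9 CPM on HFD (SD, n = 3).

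Further marker lists were measured in the same samples, none with a gene past an adjusted p of 0.05. ARC neuron genes, led by Cartpt, had 8 of 9 genes higher on HFD and a median log2 fold change of 0.42, with 2 of 9 at p under 0.05 (22.2%, beside 2.3% of all genes tested; 1 without NCD1, NCD2, HFD1 or HFD3 and 4 without NCD3). That median was 0.087 without HFD3, 0.175 without NCD1, 0.743 without NCD3 and 0.066 with the total count as a covariate. General neuronal genes, led by Snap25 (572 FPKM), had a median of 0.04 (-0.102 without NCD1 and 0.094 without NCD2), and oligodendrocyte precursor genes, led by Pdgfra (6.57 FPKM), one of -0.18 (-0.343 without HFD3 and -0.092 without HFD1). Endothelial genes, led by Ly6c1 (50.7 FPKM), had a median of -0.00325 (-0.089 without HFD3 and 0.171 without NCD1). Of these 8 genes 1 was higher and 1 lower at p under 0.05 (25%, beside 2.3% of all genes tested). In both directions together there was 1 without NCD2, HFD1 or HFD3. All 7 pericyte and smooth muscle genes, led by Rgs5 (32.4 FPKM), were lower (median -0.16, and -0.348 without HFD2). Of these, 2 (28.6%) had a p under 0.05 and no overlap, beside 2.3% and 6.47% of all genes tested. They were the smooth muscle genes Acta2 and Tagln, named after their values were seen. The count at p under 0.05 was 0 without HFD1, 1 without NCD1 and 3 without HFD3. Tanycyte and ependymal genes, led by Rarres2 (135 FPKM), had a median of 0.27 (0.127 without HFD1 and 0.571 without HFD2). Of these 7 genes 2 (28.6%) were higher at p under 0.05, beside 2.3% of all genes tested. Their number was 0 without NCD2, 1 without NCD1, HFD1 or HFD3 and 3 without NCD3. Fibroblast and meningeal genes, led by Igf2 (24.9 FPKM), had a median of 0.04 that was -0.809 without HFD3. Choroid plexus genes, led by Clic6 (6.85 FPKM), were lower in 4 of 4 tested (median -0.26, ranging from -0.437 without HFD1 to -0.056 without HFD2). Red blood cell genes, led by Hba-a2 (1018 FPKM), were lower in 5 of 5 (median -0.50, but -0.136 without NCD2, -0.288 without HFD3 and -0.856 without NCD1), with summed levels of 782, 2488 and 1966 CPM on NCD and 1687, 1156 and 824 CPM on HFD. Of the 6 plasma and liver genes 3 were tested, led by Trf (73.4 FPKM), with a median of 0.58 (0.251 without NCD1). Trf itself was lower (log2 fold change -0.27, SE 0.34), while Apoa1 (0.76, SE 0.40) and Apoa2 (0.58, SE 0.43) were higher. Alb had 4 counts and Fga 2 in all samples together, and Fgb had no count.

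Counts and FPKM of a gene imply a transcript length once the total is known. For C4b the implied length was 5376 to 5381 bases in every sample, beside 5379 bases for its longest annotated transcript. For C3 it ranged from 2179 bases in NCD3 to 5147 bases in NCD2, a ratio of 2.36 that only 1.24% of 13251 genes averaging 20 counts or more reached. The median ratio over those genes was 1.05. For C2 it ranged from 1393 to 1954 bases. The C3 counts in NCD3 and HFD3 thus came with short implied lengths (2179 and 2269 bases), and the FPKM order of samples for C3 differed from the CPM order. What isoforms the reads came from was not tested.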
